A study of Mus musculus with 16 samples.

Results

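The 10 genes described here encode the proteins that hold a resting T cell in G1 or let it leave: the D-type cyclins Ccnd2 and Ccnd3, their kinases Cdk4 and Cdk6, the cyclin-dependent kinase (CDK) inhibitors Cdkn1a (p21), Cdkn1b (p27) and Cdkn2d (p19), and the antiproliferative genes Btg1, Btg2 and Tob1. They were taken by name, as 10 of the 24421 genes of the count table, and the rule used no measured value. RNA was sequenced from naive T cells of the lymph nodes of C57BL/6 mice, gated as negative for CD25, high for CD62L and low for CD44. Of the CD8+ and of the CD4+ cells, the upper (CD5hi) and the lower (CD5lo) tercile of surface CD5 were sorted. The groups were CD8 CD5hi, CD8 CD5lo, CD4 CD5hi and CD4 CD5lo, with 4 biological replicates each and 16 libraries in all. No allele, agent or treatment is named for any group, and no source used here gives the age or sex of the mice or says whether animals were pooled.

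In the G1 phase, D-type cyclins bind CDK4 or CDK6, and the active kinases phosphorylate the RB proteins, which frees E2F factors to turn on the genes of DNA replication. CDK inhibitors of the INK4 family, such as p19, bind CDK4 and CDK6 directly, while those of the CIP/KIP family, such as p21 and p27, bind cyclin-CDK complexes. BTG and TOB proteins recruit the CCR4-NOT deadenylase, which shortens the poly(A) tails of mRNAs, and in mouse T cells Btg1 and Btg2 are known to help keep naive cells quiescent. CD5 is an inhibitory receptor, and naive cells that react more strongly with self ligands carry more of it.

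The libraries held 71447252 to 93418385 counts, and all 10 genes were among the 13554 that passed the filter on low counts. Levels are CPM, a count scaled by library size and the TMM factor and not by the length of the RNA. The sort was visible in Cd5 RNA, at 498 ± 37.8 CPM in CD8 CD5hi against 200.4 ± 12.3 CPM in CD8 CD5lo, and at 1386 ± 34.4 CPM in CD4 CD5hi against 255 ± 19.5 CPM in CD4 CD5lo (SD, n = 4 each). The summed level of 5 T cell markers lay between 2869 and 3333 CPM in all 16 libraries. The sum of 15 B cell markers stood apart in 3 libraries, with 999.8 CPM in CD8 CD5hi replicate 4, 616 CPM in CD8 CD5lo replicate 3 and 391 CPM in CD4 CD5lo replicate 3, against 11.4 to 73.3 CPM in the other 13. The CD8 libraries among them also held CD4 lineage RNA. The sum of 2 CD4 lineage markers was 82.6 CPM in CD8 CD5hi replicate 4 and 34.0 CPM in CD8 CD5lo replicate 3. In the other CD8 libraries it was 0.900 to 3.58 CPM. The myeloid gene Lyz2 was at 10.7 and 6.64 CPM in these libraries, against 0.159 to 0.409 CPM in the other CD8 libraries. Results that move when those 3 B-marker-rich libraries are left out are given both ways. The erythroid gene Hbb-bs was at 0 in every library, and the sum of 8 myeloid markers lay between 35.7 and 61.7 CPM. RNA of Cd44, whose protein was gated as low, was at 7.61 to 20.5 CPM in CD8 CD5hi and 2.70 to 7.35 CPM in CD8 CD5lo. In CD4 cells it was at 3.46 to 8.90 CPM in CD5hi and 5.55 to 8.39 CPM in CD5lo. The part of cells with more Cd44 RNA in the results was not tested. Markers of regulatory T cells and of natural killer cells differed between the groups and are given with the gene lists below.

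**Figure D1:**
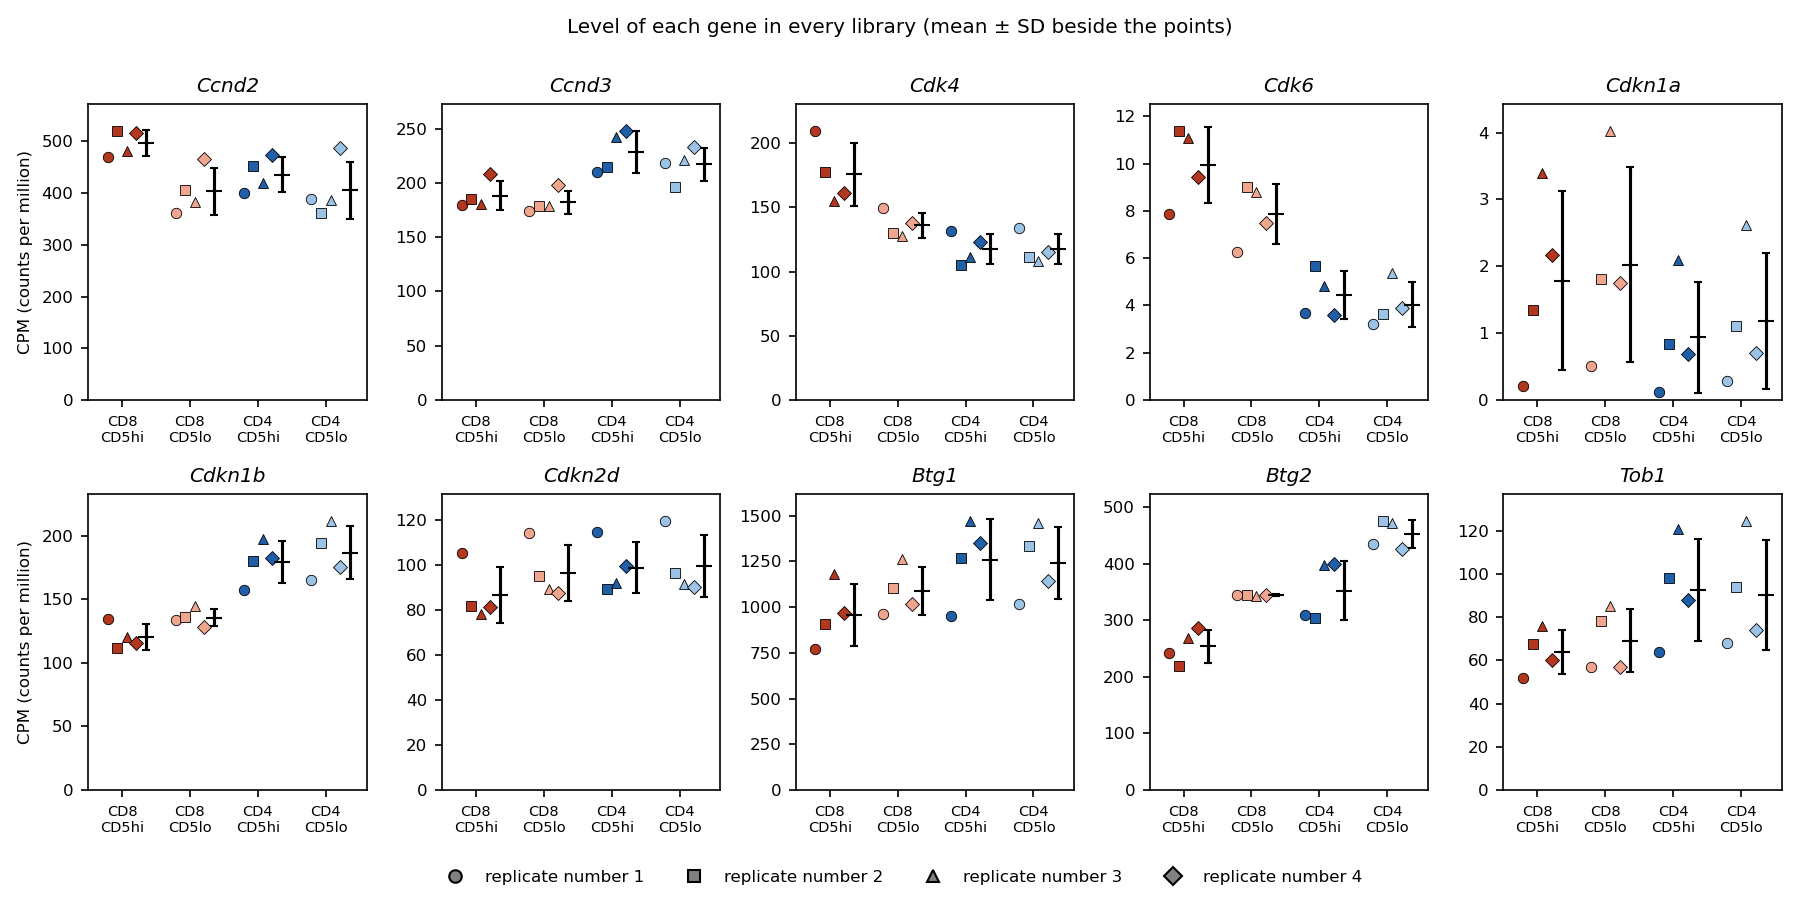
CPM (linear axes from 0) of each of the 10 genes in every library of the 4 sorted groups, with the marker shape giving the replicate number and the bar the mean ± SD of 4 libraries. Btg2 is lower in CD5hi than in CD5lo in both lineages without overlap, Cdk4 is highest in CD8 CD5hi, and Cdk6 is higher in both CD8 groups than in both CD4 groups.

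Among CD8 cells, high CD5 went with more Cdk4 RNA and less Btg2 RNA, and the other 8 genes did not pass edgeR's test, of which DESeq2 called Ccnd2 higher. Cdk4 rose by 29.1% and Btg2 fell by 26.1%. The question this comparison addresses is how naive cells that differ in surface CD5 differ in the RNA of their G1 machinery. Self-recognition itself was not measured here. The 2 genes called are to be read against 9.46% of all genes tested that were called in either direction, 5.95% higher and 3.51% lower in CD5hi. The median log2 change of the 10 genes was -0.14, against -0.0028 over all genes tested. The test was edgeR's quasi-likelihood F test, two-sided, with p-values adjusted by Benjamini-Hochberg over all genes and a threshold of 0.05. Every adjusted p below comes from it unless another tool is named, and values after ± beside a log2 change are standard errors (SE).

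Among CD4 cells, Btg2 was the gene of the 10 that passed, and it fell by 22.0% in CD5hi. Of all genes tested, 4.08% were called in this comparison in either direction, 2.68% higher and 1.4% lower in CD5hi, and the median log2 change was 0.015 for the 10 genes against -0.0075 for all genes. The difference between the CD5 effect in CD8 and that in CD4 cells was called for 0 of the 10 genes by edgeR, and for 0.31% of all genes. At a raw p below 0.05 that test gave 1 of the 10, Cdk4, and 1021 of the 13554 genes tested. Neither DESeq2 nor limma-voom called any of the 10.

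**Figure D2:**
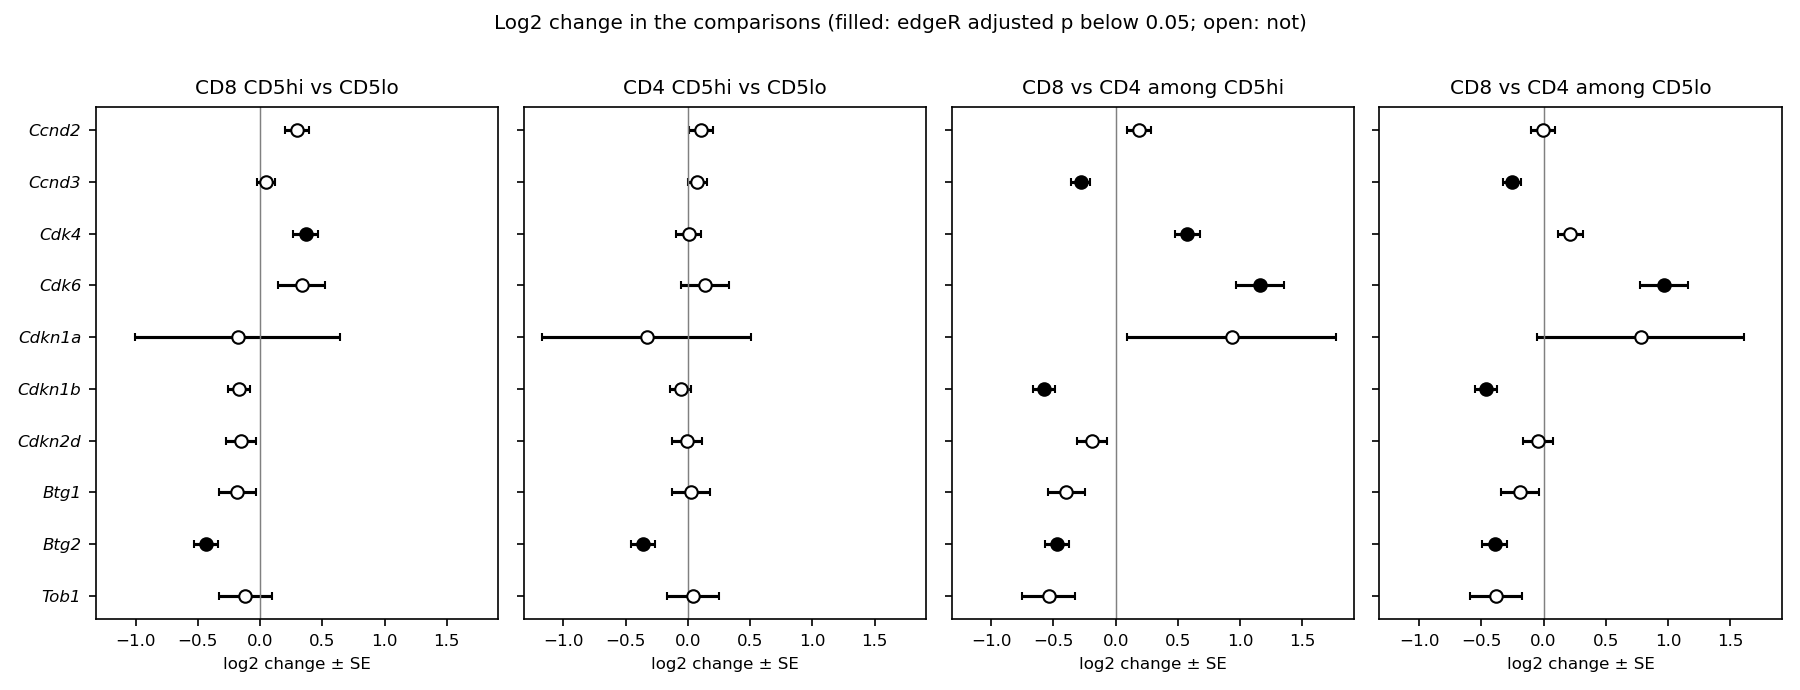
Log2 change with its SE for each gene, CD5hi over CD5lo in CD8 and in CD4 cells, then CD8 over CD4 among CD5hi and among CD5lo cells; filled points have an edgeR adjusted p below 0.05. The filled points are Cdk4 and Btg2 in CD8 cells, Btg2 in CD4 cells, 5 genes between lineages among CD5hi and 4 among CD5lo.

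The D-type cyclins were measured deeply, with 26552 to 45759 counts of Ccnd2 and 12811 to 19720 counts of Ccnd3 in a library. Ccnd2, which encodes cyclin D2, lies on the minus strand of chromosome 6 (127125162 to 127152193, GRCm38). It was at 469, 520.0, 480.3 and 517 CPM in CD8 CD5hi replicates 1 to 4, against 361, 405, 382 and 465.5 CPM in CD8 CD5lo. The lowest CD8 CD5hi library was thus above the highest CD8 CD5lo library, by less than the spread within either group. Its log2 change was 0.30 ± 0.10 (adjusted p = 0.0640), short of the threshold by edgeR. DESeq2 called it (adjusted p = 0.0322), as did edgeR with a minimum count of 50 (adjusted p = 0.0495), without CD8 CD5lo replicate 4 (0.39, adjusted p = 0.0263) and without CD4 CD5lo replicate 4 (adjusted p = 0.0295). In CD4 cells Ccnd2 was at 399, 452, 418 and 473 CPM in CD5hi, against 388, 361, 387 and 486 CPM in CD5lo. These groups overlapped, with a log2 change of 0.10 ± 0.10 (adjusted p = 0.84). Of all genes tested, 8.31% were higher in CD8 CD5hi without overlap and 6.52% were lower without overlap. Among the 10 genes, Ccnd2, Cdk4 and Btg2 did not overlap.

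Ccnd3, which encodes cyclin D3, is on the plus strand of chromosome 17 (47505051 to 47599691). It was at 179, 185, 181 and 208 CPM in CD8 CD5hi and at 174, 179, 178 and 198 CPM in CD8 CD5lo. In CD4 cells it was at 210.5, 214, 243 and 248 CPM in CD5hi and at 218, 196, 221 and 233 CPM in CD5lo. CD5 made no detectable difference in either lineage (log2 change 0.05 ± 0.08 in CD8 and 0.08 ± 0.08 in CD4, adjusted p = 0.77 and 0.87). Between lineages Ccnd3 was lower in CD8 cells: it fell by 17.6% among CD5hi (log2 change -0.28 ± 0.08, adjusted p = 0.0098) and fell by 16.1% among CD5lo (-0.25 ± 0.08, adjusted p = 0.0256). Among CD5hi the lineages did not overlap. Among CD5lo they did, and that call did not survive the removal of 1 library in 6 cases (CD8 CD5lo replicates 1, 2 or 3 or CD4 CD5lo replicates 1, 3 or 4; adjusted p 0.0558 to 0.0874) or of the 3 B-marker-rich libraries together (adjusted p = 0.114). Bysl, on the opposite strand, shares 14.8% of the exonic bases of Ccnd3. Its own log2 change between lineages was 0.17 among CD5hi (adjusted p = 0.34) and 0.02 among CD5lo (adjusted p = 0.94).

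Per length of RNA, cyclin D2 and D3 made up nearly the whole of the D-type cyclin message. Counts were divided by the exonic length of each gene, 6711 bases for Ccnd2 and 2447 bases for Ccnd3, so that genes could be compared. Ccnd3 made up 50.8 ± 1.31% of D-type cyclin RNA in CD8 CD5hi and 55.1 ± 1.37% in CD8 CD5lo, and 58.8 ± 1.99% in CD4 CD5hi and 59.4 ± 1.94% in CD4 CD5lo (SD, n = 4 each). The share of Ccnd2 ran from 47.3 to 50.3% in CD8 CD5hi, from 42.8 to 45.95% in CD8 CD5lo, from 38.5 to 43.3% in CD4 CD5hi and from 38.7 to 43.1% in CD4 CD5lo. All 4 CD8 CD5hi libraries were above the other 12. Ccnd1, the third D-type cyclin gene, took at most 0.534% in any library.

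**Figure D3:**
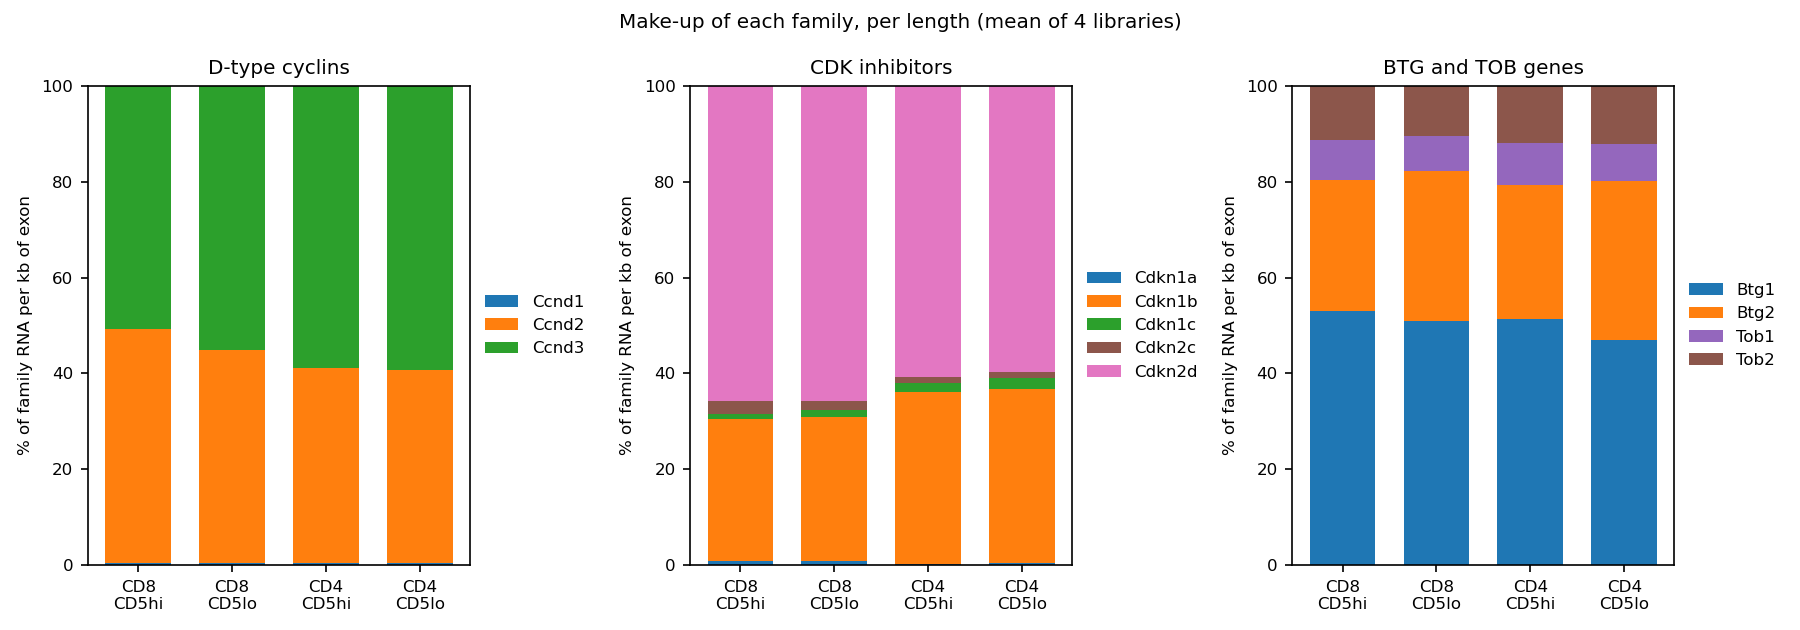
Stacked bars of the share of each gene in the summed RNA per kilobase of exon of its family (percent, mean of 4 libraries), for D-type cyclins, CDK inhibitors and BTG/TOB genes in the 4 groups; genes under 0.2% in every group are left out. Ccnd2 and Ccnd3 share the first family, Cdkn2d and Cdkn1b the second, and Btg1 leads the third with 46.9 to 53.04%.

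Cdk4, the kinase partner of the D-type cyclins, rose with CD5 in CD8 cells, and edgeR called no other of the 10 genes higher there. It lies on the plus strand of chromosome 10 (127063534 to 127067920). Its level was 209.5, 178, 155 and 161 CPM in CD8 CD5hi replicates 1 to 4, against 149, 129.7, 128 and 138 CPM in CD8 CD5lo. The lowest CD5hi library was above the highest CD5lo library. The log2 change was 0.37 ± 0.10 (adjusted p = 0.0299). That call was lost without CD8 CD5hi replicate 1 (0.28, adjusted p = 0.0874) or 2, without CD8 CD5lo replicate 2, 3 or 4, and when CD8 libraries were fitted alone (adjusted p = 0.0632). Replicate 1 held the highest Cdk4 level in each of the 4 groups. In CD4 cells Cdk4 was at 132, 105, 111 and 123 CPM in CD5hi, against 134, 111, 109 and 115.5 CPM in CD5lo. These overlapped fully, with a log2 change of 0.0063 ± 0.10 (adjusted p = 0.998). The difference between both CD5 effects was 0.36 ± 0.14 (adjusted p = 0.49), so that this fit does not show the effect to differ between lineages. With the replicate block it was 0.36 ± 0.08 and passed (adjusted p = 0.0227), but the CD8 groups did not meet the rule for pairing.

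The upstream window of Cdk4 is printed because its letters stand out from those of the other genes. In the RefSeq table (GRCm38.p6), 9 of the 10 genes had a window, with 11 windows in all; Ccnd2 is named only. The 250 bases before the start of Cdk4, chr10:127063285-127063534 on the plus strand, are given 5′ to 3′ with each CACGTG (the E-box hexamer, which reads the same on both strands) in capitals:
Cdk4: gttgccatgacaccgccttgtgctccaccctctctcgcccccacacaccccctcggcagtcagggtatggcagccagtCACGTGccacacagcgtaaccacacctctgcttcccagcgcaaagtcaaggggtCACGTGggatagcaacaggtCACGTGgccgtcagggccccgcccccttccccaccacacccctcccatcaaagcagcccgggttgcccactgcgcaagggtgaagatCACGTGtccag
The 4 matches start at -172, -118, -98 and -11 from the gene's start. Of 32851 windows of this length, 6.02% held at least 1 CACGTG and 7 windows held 4 or more. Cdk6 had 1 match, at -220, and no other of the 9 genes had one. Such a match describes letters, not a bound site.

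Cdk6, the second kinase of the pair, was the gene with the widest call between lineages. It lies on chromosome 5 (3341485 to 3531008, plus strand) and had 248 to 1002 counts in a library. It was at 7.86, 11.4, 11.1 and 9.45 CPM in CD8 CD5hi, at 6.25, 9.01, 8.79 and 7.48 CPM in CD8 CD5lo, at 3.67, 5.69, 4.83 and 3.596 CPM in CD4 CD5hi, and at 3.21, 3.64, 5.39 and 3.90 CPM in CD4 CD5lo. Every CD8 library was above every CD4 library. Cdk6 rose 2.24-fold in CD8 among CD5hi cells (log2 change 1.16 ± 0.19, adjusted p = 0.00023) and 1.95-fold among CD5lo cells (0.97 ± 0.19, adjusted p = 0.0016). With CD5 its log2 change was 0.34 ± 0.19 in CD8 (adjusted p = 0.32) and 0.14 ± 0.19 in CD4 cells (adjusted p = 0.94).

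Cdk4 also differed between lineages, among CD5hi cells. There it rose 1.49-fold in CD8 (log2 change 0.58 ± 0.10, adjusted p = 0.00039), with all CD8 CD5hi libraries above all CD4 CD5hi libraries. Among CD5lo cells the log2 change was 0.21 ± 0.10 (adjusted p = 0.17). The replicate number was also fitted as a block over all 16 libraries. That fit is read where every same-numbered pair of the groups compared deviated together. By it the log2 change was 0.22 ± 0.05 and passed (adjusted p = 0.0065). Per length of RNA, Cdk4 exceeded Cdk6 by 102.8 ± 32.0 times in CD8 CD5hi, 99.97 ± 25.1 times in CD8 CD5lo, 157 ± 47.6 times in CD4 CD5hi and 171 ± 49.96 times in CD4 CD5lo (SD, n = 4 each).

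A neighbour limits what is said of Cdk4. Tspan31, which encodes a tetraspanin, lies on the opposite strand and shares 31.2% of the exonic bases of Cdk4. No source used here gives the strand setting of the counting, so reads of the overlap cannot be told apart. Tspan31 averaged 17.3 CPM in CD8 CD5hi and 22.1 CPM in CD8 CD5lo, and 9.73 CPM in CD4 CD5hi and 19.8 CPM in CD4 CD5lo. With CD5 it had a log2 change of -0.35 ± 0.11 in CD8 (adjusted p = 0.0528), opposite in sign to that of Cdk4. In CD4 cells it fell by 1.03 ± 0.11 (adjusted p = 2.5e-05). Between lineages among CD5hi cells it rose by 0.83 ± 0.11 (adjusted p = 2.8e-05), the same way as Cdk4. There Cdk4 averaged 175.8 CPM in CD8 CD5hi and 117.9 CPM in CD4 CD5hi. The part of the shared bases in the Cdk4 values was not tested.

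Of the CDK inhibitors, Cdkn1b differed between lineages and none was called by CD5. Cdkn1b encodes p27, which binds cyclin-CDK complexes and is abundant in resting lymphocytes. It lies on chromosome 6 (134920401 to 134925513, plus strand). Its level was 135, 111, 120.4 and 115.5 CPM in CD8 CD5hi, 134, 136, 145 and 128 CPM in CD8 CD5lo, 158, 180.1, 197 and 182 CPM in CD4 CD5hi, and 165, 195, 212 and 176 CPM in CD4 CD5lo. All 8 CD8 libraries were below all 8 CD4 libraries. Cdkn1b fell by 32.8% in CD8 among CD5hi (log2 change -0.57 ± 0.09, adjusted p = 0.00011) and fell by 27.3% among CD5lo cells (-0.46 ± 0.09, adjusted p = 0.0011). With CD5 the log2 change was -0.17 ± 0.09 in CD8 (adjusted p = 0.26) and -0.06 ± 0.09 in CD4 cells (adjusted p = 0.95).

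Cdkn2d, which encodes the INK4 protein p19, varied little between groups. It lies on chromosome 9 (21288410 to 21291407, minus strand). Its level was 105, 81.9, 78.1 and 81.3 CPM in CD8 CD5hi, 114, 94.9, 89.2 and 87.3 CPM in CD8 CD5lo, 114.5, 89.4, 91.9 and 99.4 CPM in CD4 CD5hi, and 119.5, 96.4, 91.6 and 90.3 CPM in CD4 CD5lo. The highest library of each group was replicate 1. Its log2 change was -0.16 ± 0.12 with CD5 in CD8 (adjusted p = 0.49) and -0.0093 ± 0.12 in CD4 cells (adjusted p = 0.998). Between lineages it was -0.19 ± 0.12 among CD5hi (adjusted p = 0.26) and -0.04 ± 0.12 among CD5lo cells (adjusted p = 0.88). With the replicate block the CD5hi value was -0.20 ± 0.05 and passed (adjusted p = 0.0028).

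Cdkn1a, which encodes p21 and is a textbook target of p53, was barely expressed, with 9 to 294 counts in a library. It lies on chromosome 17 (29090976 to 29100727, plus strand). Its level was 0.214, 1.35, 3.39 and 2.17 CPM in CD8 CD5hi, 0.515, 1.82, 4.02 and 1.74 CPM in CD8 CD5lo, 0.115, 0.841, 2.10 and 0.692 CPM in CD4 CD5hi, and 0.285, 1.11, 2.61 and 0.703 CPM in CD4 CD5lo. The spread within each group was far wider than the difference between groups. No comparison passed: the log2 change was -0.18 ± 0.82 with CD5 in CD8 (adjusted p = 0.93), -0.33 ± 0.84 in CD4 (adjusted p = 0.98), and 0.93 ± 0.84 and 0.78 ± 0.83 between lineages among CD5hi and CD5lo cells (adjusted p = 0.44 and 0.62). Between lineages with the replicate block it rose by 1.00 ± 0.26 among CD5hi (adjusted p = 0.0059) and by 0.86 ± 0.26 among CD5lo cells (adjusted p = 0.019), with CD8 above CD4 in all 4 pairs of same-numbered libraries at each CD5 level.

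Per length of RNA, Cdkn2d and Cdkn1b made up most of the CDK inhibitor message. Cdkn2d took 65.6 ± 2.27% in CD8 CD5hi, 65.7 ± 3.90% in CD8 CD5lo, 60.7 ± 4.91% in CD4 CD5hi and 59.6 ± 5.57% in CD4 CD5lo, of the sum of 7 inhibitor genes. Cdkn1b took 29.8 ± 1.31% in CD8 CD5hi, 30.2 ± 2.32% in CD8 CD5lo, 35.9 ± 4.01% in CD4 CD5hi and 36.5 ± 4.45% in CD4 CD5lo (SD, n = 4 each). Cdkn1a took at most 1.504% in any library. The INK4 genes Cdkn2a and Cdkn2b, which share a locus, had at most 2 and 10 counts. Cdk4 RNA per length exceeded that of Cdkn1b by 3.23 ± 0.320 times in CD8 CD5hi and 2.23 ± 0.241 times in CD8 CD5lo, and by 1.47 ± 0.273 times in CD4 CD5hi and 1.42 ± 0.290 times in CD4 CD5lo.

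Btg2, an antiproliferative gene that stimuli switch on within a short time, was lower at high CD5 in both lineages and lower in CD8 than in CD4 cells at both CD5 levels. It lies on the minus strand of chromosome 1 (134075170 to 134079120). Its level was 242, 219.5, 268 and 287 CPM in CD8 CD5hi replicates 1 to 4, against 345, 344, 342 and 345 CPM in CD8 CD5lo. In CD4 cells it was 309.6, 304, 397 and 399 CPM in CD5hi, against 435, 475, 471 and 426 CPM in CD5lo. Neither pair of groups overlapped. The log2 change was -0.44 ± 0.10 in CD8 (adjusted p = 0.0094) and -0.36 ± 0.10 in CD4 cells (adjusted p = 0.0499). The difference between both was -0.08 ± 0.14 (adjusted p = 0.99). Of all genes tested, 3.69% were lower and 5.6% were higher in CD4 CD5hi without overlap; Btg2 was the one gene of the 10 that did not overlap there.

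The Btg2 call in CD8 cells held without each of the 16 libraries in turn (adjusted p up to 0.0412), while that in CD4 cells did not. The CD4 call was lost without 11 of the 16 libraries, among them any CD4 CD5lo library, CD4 CD5hi replicates 1 and 2, any CD8 CD5lo library and CD8 CD5hi replicate 3, with adjusted p from 0.0600 to 0.169. Without the 3 B-marker-rich libraries the CD4 change was -0.34 (adjusted p = 0.119). Between lineages Btg2 fell by 27.8% among CD5hi (log2 change -0.47 ± 0.10, adjusted p = 0.0016) and fell by 23.9% among CD5lo cells (-0.39 ± 0.10, adjusted p = 0.0081), without overlap. From highest to lowest, the group means were 452 ± 24.9 CPM in CD4 CD5lo, 352 ± 52.8 CPM in CD4 CD5hi, 344 ± 1.496 CPM in CD8 CD5lo and 254 ± 29.4 CPM in CD8 CD5hi. The second and the third did not differ beyond their spread.

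The window before the start of Btg2 is printed for a motif that none of the other windows held. The 250 bases at chr1:134079156-134079405 on the minus strand are given 5′ to 3′ with TGACGTCA, the full cAMP response element, in capitals:
Btg2: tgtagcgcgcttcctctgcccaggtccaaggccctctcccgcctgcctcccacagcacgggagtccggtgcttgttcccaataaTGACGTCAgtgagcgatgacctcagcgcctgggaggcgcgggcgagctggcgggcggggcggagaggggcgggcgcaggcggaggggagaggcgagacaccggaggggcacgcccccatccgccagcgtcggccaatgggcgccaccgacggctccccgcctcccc
The match starts at -166 and reads the same on both strands. Of the 32851 windows, 1.55% held it.

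Other genes that respond to handling or stimulation are given beside Btg2. The summed level of 26 such genes was 6279 to 8134 CPM in CD8 CD5hi against 8355 to 10105 CPM in CD8 CD5lo, and 9098 to 11149.7 CPM in CD4 CD5hi against 10050.5 to 13157 CPM in CD4 CD5lo. In CD8 cells 0 rose and 4 fell, with 1 higher and 7 lower at a raw p below 0.05 by edgeR and 4 lower by DESeq2 and by limma-voom. Among them the cytokine signalling inhibitor Socs3 fell by 1.33 ± 0.15 (adjusted p = 4.5e-05), and the transcription factor Jun by 0.70 ± 0.15 (adjusted p = 0.0057). In CD4 cells 1 rose, the early response factor Egr3 (0.52 ± 0.13, adjusted p = 0.0357), and 1 fell; with the replicate block 2 rose and 3 fell, and without the 3 B-marker-rich libraries 0 rose and 3 fell. Of all genes tested, 5.95% rose and 3.51% fell in CD8 CD5hi, and 2.68% rose and 1.4% fell in CD4 CD5hi. In CD8, 3080 of 13554 genes had a raw p below 0.05 by edgeR, in either direction. DESeq2 called 1075 higher and 708 lower there, and limma-voom 847 and 508. In CD4 the replicate block called 771 higher and 541 lower. Without the 3 B-marker-rich libraries, 367 rose and 167 fell of 13570 in CD4. The part of the handling and stimulation genes in the Btg2 result was not tested.

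Btg1, the most abundant of the 10 genes, was not called by CD5. It lies on chromosome 10 (96617006 to 96622809, plus strand). Its level was 772, 907, 1183 and 968 CPM in CD8 CD5hi, 962, 1102, 1263 and 1017 CPM in CD8 CD5lo, 951, 1266, 1471 and 1351 CPM in CD4 CD5hi, and 1016, 1336, 1458 and 1145 CPM in CD4 CD5lo. All groups overlapped. The log2 change was -0.18 ± 0.15 with CD5 in CD8 (adjusted p = 0.53) and 0.02 ± 0.15 in CD4 cells (adjusted p = 0.99). Between lineages it was -0.40 ± 0.15 among CD5hi (adjusted p = 0.0581, and 0.0448 by DESeq2) and -0.19 ± 0.15 among CD5lo cells (adjusted p = 0.47). With the replicate block it fell by 0.40 ± 0.06 among CD5hi (adjusted p = 0.00015) and by 0.18 ± 0.06 among CD5lo cells (adjusted p = 0.0393).

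Tob1, a BTG relative that also binds the deadenylase, was likewise not called by CD5. It lies on chromosome 11 (94211454 to 94215495, plus strand). Its level was 51.6, 67.6, 75.6 and 60.1 CPM in CD8 CD5hi, 57.0, 78.0, 84.9 and 56.7 CPM in CD8 CD5lo, 63.7, 98.01, 121 and 88.0 CPM in CD4 CD5hi, and 67.9, 93.9, 124 and 74.1 CPM in CD4 CD5lo. The groups overlapped. The log2 change was -0.12 ± 0.21 with CD5 in CD8 (adjusted p = 0.80), 0.04 ± 0.21 in CD4 (adjusted p = 0.99), and -0.54 ± 0.21 and -0.38 ± 0.21 between lineages among CD5hi and CD5lo cells (adjusted p = 0.0667 and 0.26). DESeq2 called the CD5hi value (adjusted p = 0.0418). With the replicate block it fell by 0.52 ± 0.07 among CD5hi (adjusted p = 4.9e-05) and by 0.36 ± 0.07 among CD5lo cells (adjusted p = 0.0014).

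Per length of RNA, Btg1 led its family in all groups. It took 53.04 ± 1.73% of BTG and TOB RNA in CD8 CD5hi, 50.9 ± 1.17% in CD8 CD5lo, 51.4 ± 0.815% in CD4 CD5hi and 46.9 ± 1.13% in CD4 CD5lo (SD, n = 4 each). Btg2 took 27.4 ± 3.61% in CD8 CD5hi against 31.3 ± 3.33% in CD8 CD5lo, and 27.9 ± 3.30% in CD4 CD5hi against 33.3 ± 3.34% in CD4 CD5lo. Tob2, which is not among the 10, took 10.3 to 11.98% on average and Tob1 7.42 to 8.65%. Btg3 took at most 0.244%, and Btg4 was at 0 counts in every library.

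Between lineages, 5 of the 10 genes were called among CD5hi cells, 2 higher in CD8 (Cdk4, Cdk6) and 3 lower (Ccnd3, Cdkn1b, Btg2), against 30.3% of all genes tested called in either direction (15.6% higher, 14.8% lower). Among CD5lo cells 4 were called, 1 higher (Cdk6) and 3 lower (Ccnd3, Cdkn1b, Btg2), against 19.5% of all genes (9.44% lower, and the rest of them higher). Without overlap, the counts were 5 of 10 among CD5hi and 3 of 10 among CD5lo; of all genes, 14.4% were higher and 14.6% lower without overlap among CD5hi, and 11.8% higher and 10.5% lower among CD5lo. The median log2 change of the 10 genes was -0.24 among CD5hi and -0.12 among CD5lo, against 0.010 and 0.00016 over all genes. DESeq2 called 2 higher and 5 lower among CD5hi, Btg1 and Tob1 being the 2 added, and the same counts as edgeR among CD5lo, while limma-voom gave edgeR's counts in both. With the replicate block, 3177 of 13554 genes tested were higher and 3159 lower among CD5hi, and 2132 and 2213 among CD5lo. Of the 10 genes, the block called all 10 among CD5hi, 4 higher and 6 lower, and 8 among CD5lo, 3 higher and 5 lower. Ccnd2 was then among those higher in CD8 CD5hi (0.19 ± 0.06, adjusted p = 0.018), while among CD5lo its log2 change was -0.0070 ± 0.06 (adjusted p = 0.95). The 4 comparisons share libraries in pairs, so their values are not independent of each other.

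In 4 of the 10 genes, replicate number took more of the variation than the sorted group, near the 43.5% of all genes. For each gene, the variation of log2 CPM over the 16 libraries was split between group (3 degrees of freedom), replicate number (3) and the rest. Group took 85.6% of the variation of Cdkn1b, 85.1% of Btg2, 83.4% of Cdk6, 76.9% of Cdk4, 70.0% of Ccnd3 and 51.2% of Ccnd2. Replicate number took more than group in the other 4 genes: 82.3% of Cdkn1a, 73.2% of Cdkn2d, 57.2% of Tob1 and 54.6% of Btg1. Over all genes tested the medians were 40.1% for group and 29.0% for replicate number, and in 43.5% of genes replicate number took more than group, against 4 of these 10. The labels do not say what a replicate number shares.

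**Figure D4:**
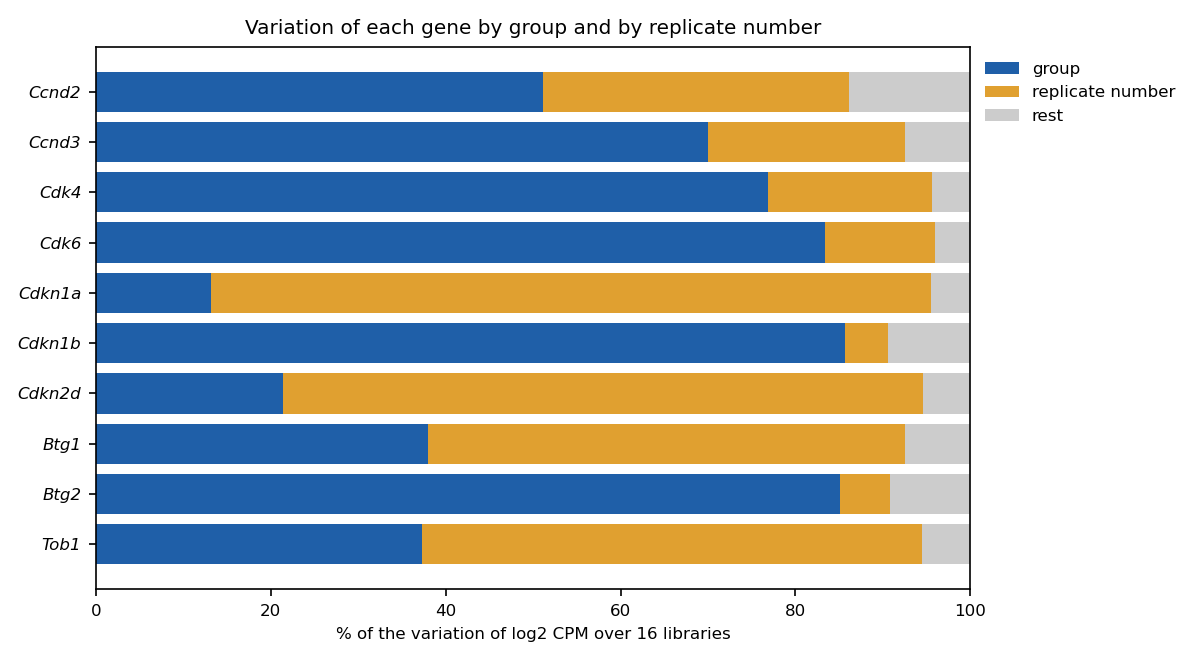
Share of the variation of log2 CPM over 16 libraries (percent) taken by the sorted group, by the replicate number and by the rest, 1 bar for each of the 10 genes. Replicate number takes 54.6 to 82.3% in Cdkn1a, Cdkn2d, Btg1 and Tob1, and 4.99 to 34.9% in the other 6.

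Cdkn1a was lowest in replicate 1 and highest in replicate 3 in each of the 4 groups. It ran from 0.115 to 0.515 CPM in the 4 replicate 1 libraries and from 2.10 to 4.02 CPM in the 4 replicate 3 libraries. Cdkn2d went another way, highest in replicate 1 in all 4 groups, at 105 to 119.5 CPM against 78.1 to 99.4 CPM in the other 12 libraries. Btg1 was lowest in replicate 1 and highest in replicate 3 in all 4 groups. Tob1 was highest in replicate 3 in all 4 groups and lowest in replicate 1 in 3 of them. Cdk4 was highest in replicate 1 and Ccnd3 in replicate 4 in all 4 groups, though group took more of their variation. Btg2 had no replicate number that was lowest or highest in every group. The p53 targets were a list of 22 genes other than Cdkn1a, of which 20 were tested. With CD5, edgeR called 0 of them in either lineage, against 9.46% of all genes in CD8 and 4.08% in CD4. At a raw p below 0.05 they had 5 higher and 1 lower in CD8 and 0 in CD4. Of all 13554 genes tested, 3080 in CD8 and 1684 in CD4 had such a p, in either direction. DESeq2 and limma-voom called 1 p53 target each in CD8 and 0 in CD4. Without the 3 B-marker-rich libraries edgeR called 1, higher, in each lineage.

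**Figure D5:**
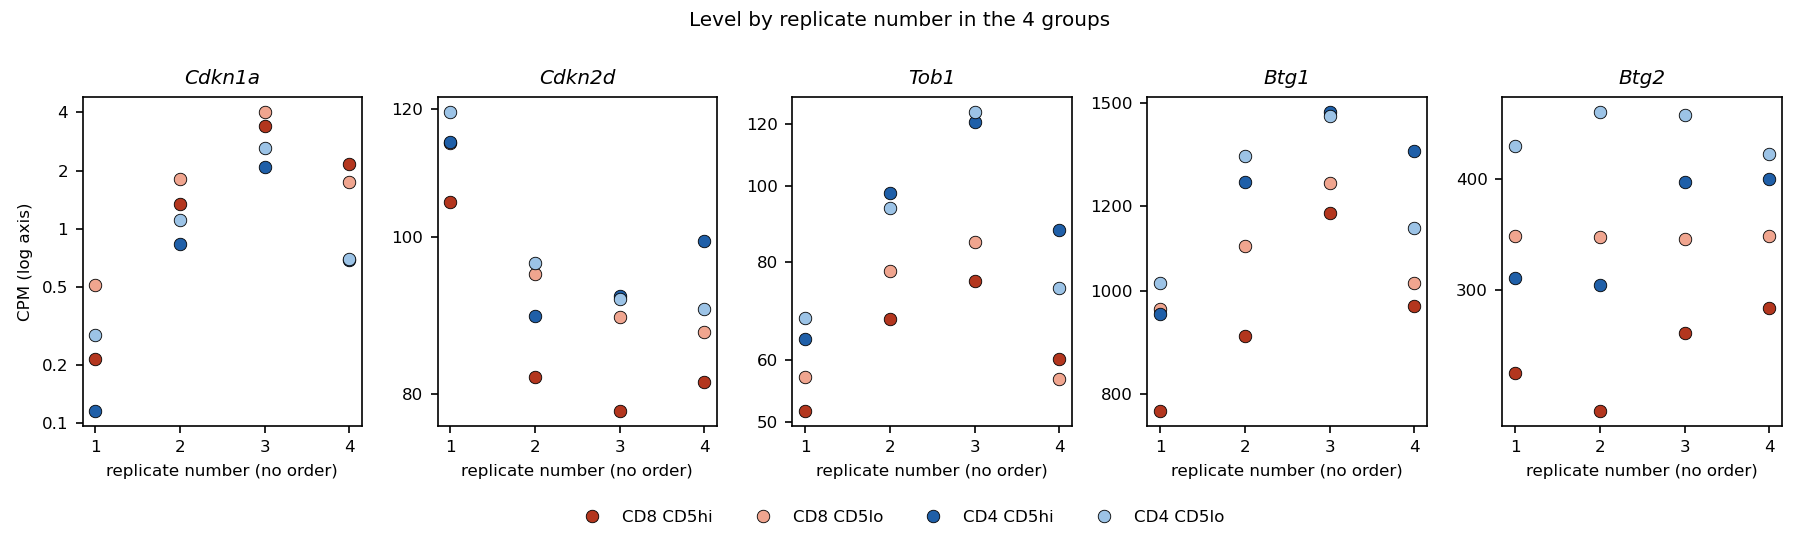
CPM (log axis) of 5 genes against the replicate number of the library (numbers have no order), with a point for each of the 4 sorted groups. Cdkn1a, Tob1 and Btg1 are highest in replicate 3 and Cdkn2d in replicate 1 in all 4 groups, while Btg2 is split by group instead.

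Genes downstream of the G1 kinases differed with CD5 in CD8 cells. Counts with CD5 in the lists below stand against 5.95% of all genes higher and 3.51% lower in CD8 CD5hi. In CD4 CD5hi those shares were 2.68% and 1.4%. A raw p below 0.05 was found for 3080 of 13554 genes in CD8 and 1684 in CD4, in either direction. For the difference between the CD5 effects it was 1021. DESeq2 called 1075 higher and 708 lower in CD8, and 470 and 307 in CD4. Limma-voom called 847 and 508 in CD8, and 378 and 177 in CD4. The replicate block called 771 and 541 in CD4. Without the 3 B-marker-rich libraries, 951 rose and 548 fell of 13570 in CD8. Of 18 RB and E2F genes, 7 rose and 0 fell in CD8 CD5hi, with 7 higher and 0 lower at a raw p below 0.05 by edgeR, and 7 and 0 by DESeq2 and by limma-voom. The S phase activator E2f1 rose by 1.48 ± 0.23 (adjusted p = 0.00065), to 12.9 ± 4.14 CPM in CD8 CD5hi against 4.62 ± 0.884 CPM in CD8 CD5lo. Its dimer partner gene Tfdp1 rose by 0.83 ± 0.14 (adjusted p = 0.0012). In CD4 cells 2 rose and 0 fell, among them E2f3 (0.64 ± 0.11, adjusted p = 0.0015), and with the replicate block 3 rose and 1 fell. By unadjusted p the CD4 counts were 4 and 1, by DESeq2 2 and 1, and by limma-voom 2 and 0.

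Of 32 genes of S, G2 and M phase, 26 rose and 0 fell in CD8 CD5hi, with a median log2 change of 1.42; 28 rose without the 3 B-marker-rich libraries. At a raw p below 0.05 the counts were 28 and 0, with 27 and 0 by DESeq2 and 26 and 0 by limma-voom. Among them were the microtubule regulator Stmn1 (2.45 ± 0.27, adjusted p = 5.2e-05), the replication helicase gene Mcm5 (1.02 ± 0.12, adjusted p = 7.4e-05) and thymidine kinase Tk1 (1.69 ± 0.22, adjusted p = 0.00016). Their summed level was 1719, 1808, 1555 and 1079 CPM in CD8 CD5hi replicates 1 to 4, against 909.9, 954, 1022 and 863 CPM in CD8 CD5lo. Every CD8 CD5hi library was above every CD8 CD5lo library, and the lowest of them, replicate 4, was the one with most B cell marker RNA. In CD4 cells the sum was 937 to 1031 CPM in CD5hi and 851 to 1006 CPM in CD5lo, and 0 of 32 passed by edgeR (6 higher and 0 lower at a raw p below 0.05, 0 with DESeq2 or limma-voom, and 6 higher with the replicate block). The difference between the CD5 effects in CD8 and CD4 cells was called, higher in CD8, for 1 of the 32 by edgeR, for 9 by DESeq2 and for 0 by limma-voom, with 26 at a raw p below 0.05. In sorted bulk samples, more cells in cycle and more such RNA per cell cannot be told apart, for these genes and for Cdk4. The part of these genes in the Cdk4 result was not tested.

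Of 13 other cyclin and CDK genes of G1 and S phase that were tested, 1 rose with CD5 in CD8 cells, cyclin A2 gene Ccna2 (2.44 ± 0.44, adjusted p = 0.0023), at 7.28 ± 3.97 CPM in CD8 CD5hi against 1.34 ± 0.619 CPM in CD8 CD5lo. Of all genes, 5.95% rose in that comparison, so that 1 of 13 here, or 1 of 12 in the list on protein turnover below, is near the background. Without the 3 B-marker-rich libraries 4 rose. In CD4 cells 0 passed by edgeR (3 higher at a raw p below 0.05, 0 with DESeq2 or limma-voom). The other genes tested that are named as CDK inhibitors, Cdkn1c, Cdkn2c and Cdkn3, were not called with CD5 by edgeR. Cdkn3 is listed by its name and is not of the INK4 or CIP/KIP family. In CD8, 1 was higher at a raw p below 0.05 and by DESeq2, 0 by limma-voom, and 2 higher without the 3 libraries. In CD4 it was 0 by all. Between lineages among CD5hi cells, Cdkn2c (p18) rose by 0.91 and Cdkn3 by 1.09 in CD8, while Cdkn1c (p57) fell by 1.13. Of 12 genes that degrade p27 and cyclins, 1 rose in CD8 CD5hi, the SKP2 cofactor gene Cks1b (1.62 ± 0.26, adjusted p = 0.00086), and 0 did in CD4 cells by edgeR (2 higher at a raw p below 0.05, 0 with DESeq2 or limma-voom, 1 lower with the replicate block).

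Of 17 genes of the BTG/TOB partners and the CCR4-NOT and other deadenylases, 1 rose and 1 fell with CD5 in CD8 cells, a share close to the 9.46% of all genes called there. The poly(A)-binding protein gene Pabpc4 rose by 0.51 ± 0.07 (adjusted p = 0.00023), to 137 ± 5.84 CPM in CD8 CD5hi against 95.7 ± 7.04 CPM in CD8 CD5lo. The deadenylase gene Pan2 fell by 0.29 ± 0.06 (adjusted p = 0.0047). In CD4 cells 0 passed by edgeR (1 higher at a raw p below 0.05, 0 with DESeq2 or limma-voom, 1 higher with the replicate block).

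Of 21 quiescence factors of naive T cells, 0 rose and 3 fell in CD8 CD5hi, by edgeR and by limma-voom, and 1 rose and 3 fell by DESeq2; at a raw p below 0.05 the counts were 1 and 5. Slfn2, which is needed for T cell quiescence in mice, fell by 0.34 ± 0.07 (adjusted p = 0.0052), and the factor Runx1 by 0.43 ± 0.10 (adjusted p = 0.012). In CD4 cells 1 rose, the factor Ets1 (0.27 ± 0.07, adjusted p = 0.0356), and 0 fell by edgeR, DESeq2 and limma-voom (2 lower at a raw p below 0.05); without the 3 libraries 0 passed, and with the replicate block 3 rose and 3 fell. Between lineages, 1 was higher and 11 lower in CD8 among CD5hi cells and 0 and 7 among CD5lo cells, where the replicate block gave 1 and 11. Runx1 fell by 1.55 and Slfn2 by 0.67 in CD8 among CD5hi.

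Of 21 MYC and growth genes, 4 rose and 0 fell in CD8 CD5hi (8 and 0 at a raw p below 0.05, 6 and 0 by DESeq2, 4 and 0 by limma-voom). They included the MAX dimerization genes Mxd3 (2.23 ± 0.39, adjusted p = 0.0018) and Mxd4 (0.45 ± 0.10, adjusted p = 0.011), whose proteins oppose MYC, and the nucleolar methyltransferase gene Fbl (0.25 ± 0.06, adjusted p = 0.016). In CD4 cells 0 passed by edgeR (1 higher at a raw p below 0.05, 0 with DESeq2 or limma-voom; 1 higher and 1 lower with the replicate block). Markers of other cells also moved with CD5. The sum of 6 regulatory T cell markers was 174 to 191 CPM in CD8 CD5hi against 97.4 to 140.5 CPM in CD8 CD5lo, and 335 to 417 CPM in CD4 CD5hi against 113 to 142 CPM in CD4 CD5lo. The sum of 5 natural killer markers, among them Eomes, which CD8 cells express too, was 89.1 to 165 CPM in CD8 CD5hi against 34.2 to 59.1 CPM in CD8 CD5lo, and 4.15 to 5.85 CPM in CD4 CD5hi against 1.60 to 3.03 CPM in CD4 CD5lo. Of that list, Klrb1c was at 3.19 to 5.57 CPM in CD8 CD5hi against 0.538 to 1.80 CPM in CD8 CD5lo, and Ncr1 was at 0.966 CPM or less in every library. Their part in the results was not tested.

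Between lineages, the same lists gave these counts by edgeR, all in CD8 relative to CD4. Among CD5hi cells, 27 S, G2 and M genes were higher and 0 lower, by limma-voom 26 and 0, by DESeq2 27 and 0, and at a raw p below 0.05 29 and 0. Of the RB and E2F genes 5 were higher and 1 lower, of the MYC and growth genes 9 and 1, of the p53 targets 3 and 4, of the handling and stimulation genes 2 and 8, and of the deadenylase list 2 and 1. Among CD5lo cells, 3 S, G2 and M genes were higher and 2 lower, where the replicate block gave 10 and 3. Of the RB and E2F genes 1 was higher and 2 lower, of the p53 targets 3 and 3, of the handling and stimulation genes 2 and 4, and of the deadenylase list 1 and 1. These counts stand against the 30.3% and 19.5% of all genes called. Among CD5hi cells, 5441 of 13554 genes had a raw p below 0.05, and DESeq2 called 2385 higher and 2177 lower. The replicate block called 2132 higher and 2213 lower among CD5lo cells.

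For the 3 genes with the widest range of group means, the genes nearest in pattern were found by the root mean square difference over the 4 centred group means of log2 CPM, as a description. Nearest to Cdkn1a were Eef2k (0.035), Hspa2 (0.035) and Zscan18 (0.036). Nearest to Cdk6 were Slc39a4 (0.035), H2-Q5 (0.036) and Ccne1 (0.040), the last of which encodes cyclin E1. Near to Btg2 were Oas2 (0.018) and Tmc3 (0.022). Each likeness rests on 4 group means.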

How the data were processed

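The authors deposited whole-number counts per gene (24421 genes, 16 libraries, 0 columns left over), and the totals and values are those of raw counts. The submitters' processing notes name the genome build mm10, the aligner STAR (2.5.2a), the counter featureCounts (1.4.6-p3) and DESeq2. No source used here gives the kit of each library or the strand setting. Per the labels' protocols, libraries were made with TruSeq RNA version 2 or TruSeq stranded mRNA kits. No library had a count for 6123 of the genes. Low counts (1 to 9) were mostly even numbers, 73.9 to 80.5% of them, while 49.2 to 51.3% of those at or above 1000 were, so halved counts were an alternative. The design text names technical replicates, but each sample has 1 column. Replicates are biological by the labels; whether they came from separate animals is not given, so p-values measure the spread between these samples. No 2 libraries of a group were alike within sampling noise (chi-square per degree of freedom 30.1 to 215).

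Genes were tested with edgeR 4.0.16 (R 4.3.3; TMM; filterByExpr with minimum count 10 and minimum total 15; 1 term per group over 16 samples, 12 residual degrees of freedom; quasi-likelihood F test), with Benjamini-Hochberg adjustment over 13554 genes in each of 5 comparisons and a threshold of 0.05. The SE is the log2 change over the square root of F. DESeq2 1.42.0, limma-voom (3.58.1) and the other alternatives are reported at the end. The procedure was tested on simulated data. Lengths and positions are from GENCODE vM21 (GRCm38, 1-based), and upstream sequences from RefSeq.

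Same-numbered libraries were taken as paired where every pair's correlation of deviations from the group means was over 0.1. That held for CD4 CD5hi with CD4 CD5lo (0.25 to 0.53), CD8 CD5hi with CD4 CD5hi (0.23 to 0.54) and CD8 CD5lo with CD4 CD5lo (0.20 to 0.70). It also held for CD8 CD5lo with CD4 CD5hi (0.27 to 0.53), which were not compared. The rule failed for CD8 CD5hi with CD8 CD5lo (-0.04 to 0.56) and with CD4 CD5lo (-0.03 to 0.37). The block was a single replicate term in a fit of all 16 libraries. Its SE and p-values in every comparison thus also rest on groups that did not meet the rule. The pairing comes from the numbers in the titles and these correlations, since the labels name no shared animal or day.

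The 10 genes, the lists, the comparisons and the tests were chosen with earlier results of these data known. All 10 genes are named in every comparison; from each other list, up to 3 tested genes with the smallest adjusted p in either CD5 comparison; for pattern, the 3 nearest genes, predicted genes left out, of which 1 is not reported here. Tspan31 and Bysl are named because they overlap 2 of the genes.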

Additional observations from a re-analysis of the deposited data

Results flagged for a closer look

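Cdkn2d in CD8 CD5hi replicate 1, at 105 CPM, stood far from the other 3 libraries of its group, of which the next was at 81.9 CPM. The gap, as a share of the whole range of the group, was above Dixon's 95% critical value for 4 samples. Of 40 sets of 4 libraries (10 genes in 4 groups), 1 was picked out this way, and chance picks about 1 in 20. Cdkn2d was also highest in replicate 1 in the other 3 groups.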

How the results depend on the processing

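Of 50 values (10 genes in 5 comparisons) under 27 alternatives, 1340 recomputed values in all, 1224 kept their direction and side of the threshold, 37 passed it newly, 30 lost it and 49 changed sign; 0 of those that changed sign were called in either setting. Of 12 calls, 8 held in every alternative: Ccnd3, Cdk4, Cdk6, Cdkn1b and Btg2 between lineages among CD5hi, and Cdk6, Cdkn1b and Btg2 among CD5lo. The Btg2 call in CD4 cells was also lost with RLE size factors (adjusted p = 0.0510), with the CD4 libraries alone (0.104) and without replicate 1 in all groups (0.194), and kept with the replicate block (0.0092). The causes were not tested.

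Of the 10 genes, in CD4 cells 0 were called with RLE size factors, with both CD4 groups alone, without the 3 libraries and without replicate 1 in all groups (0 to 1 leaving out single libraries). In CD8 cells 6 were called with the replicate block, Ccnd2 (0.31), Cdk4 and Cdk6 higher and Cdkn2d, Btg1 and Btg2 lower. Of 13554 genes tested, the block called 1813 higher and 1577 lower there. The CD8 groups did not meet the rule for pairing: the check gave -0.04 to 0.56, with 2 of 4 libraries closest to their own number. Those were replicates 1 (0.56) and 2 (0.25). In CD8 1 was called with the CD8 groups alone and 1 without replicate 1, which also ended the call of Btg2 (adjusted p = 0.0603), and 1 to 3 leaving out single libraries. For the difference between lineages, 1 was called with the block (Cdk4, adjusted p = 0.0227) and 1 with the block and without the 3 libraries. Between lineages among CD5hi, 10 were called with the block, 10 with the block and without the 3 libraries, and 8 without replicate 1; among CD5lo, 8 with the block and 7 with the block and without the 3 libraries.

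Of all genes, the 553 called in CD4 became 1312 with the block and 1165 with the block and without the 3 libraries. The 1282 in CD8 became 3390 and 2937 so, 813 with the CD8 groups alone, 728 without replicate 1, and 763 to 1647 leaving out single libraries. The 42 of the difference became 215 by DESeq2, 379 with the block, 129 without the 3 libraries, 502 with both, 9 without replicate 1, and 8 to 165 leaving out single libraries. Between lineages the block gave 6336 in place of 4111 (CD5hi) and 4345 in place of 2638 (CD5lo). Fitting only the groups compared gives no value for the difference. The alternatives without replicate 1, and with the block and without the 3 libraries together, were chosen after seeing the data.

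Sign changes, in genes that were not called: Cdk4 in CD4 was -0.0012 with no filter and -0.028 without the 3 libraries. Without these 3, Cdkn1a was 0.42 in CD4, 0.30 in CD8 and -0.12 for the difference (-0.31 with the block), Cdkn1b in CD4 0.0083, Tob1 in CD8 0.040, and Ccnd2 between lineages among CD5lo 2.4e-05 (0.0013 with the block). Without replicate 1, Cdkn2d in CD4 was 0.0037 and Ccnd2 between lineages among CD5lo 0.012.

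Leaving out single libraries, the log2 change of uncalled genes crossed 0 in CD4 for Cdk4 (-0.050 to 0.078), Cdkn1a (-1.10 to 0.42), Cdkn1b (-0.11 to 0.0082), Cdkn2d (-0.087 to 0.092), Btg1 (-0.060 to 0.14) and Tob1 (-0.11 to 0.24), and in CD8 for Ccnd3 (-0.0039 to 0.11) and Cdkn1a (-0.68 to 0.39). It did so for the difference in Ccnd3 (-0.079 to 0.030), Cdkn1a (-0.59 to 0.93) and Tob1 (-0.34 to 0.012), and between lineages among CD5lo in Ccnd2 (-0.082 to 0.094) and Cdkn2d (-0.14 to 0.059). Beyond the calls given here and in the report, the replicate block changed no call of the 10 genes. Cdkn1a had 9 to 294 counts, and its SE was 0.82 to 1.17 in the main fit. With the replicate block its SE with CD5 was 0.25 in CD8 and 0.26 in CD4 cells. The part of depth was not tested.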
